A study of Mus musculus with 75 samples.

Results

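The Ms4a genes (membrane-spanning 4-domains family A) encode small membrane proteins. Of the 41388 mouse genes in each of 2 deposited count tables, 7 are described here: Ms4a3, Ms4a4b, Ms4a4c, Ms4a6b, Ms4a6c, Ms4a6d and Ms4a7. They were taken by name, and the names were selected on measured values of the same tables: their levels by population and their fold changes by genotype and IL-1 were known when the list was drawn up. Every adjusted p below therefore places a gene among all the genes fitted and is no independent test of it.

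The study sequenced RNA of sorted blood stem and progenitor cells of mice in which Kmt2c, a histone H3 lysine 4 methyltransferase, was deleted, and asked how its loss alters these cells, also under inflammatory stimulation. In experiment 1, HSC (hematopoietic stem cells), HPC (hematopoietic progenitor cells), pGM (pre-granulocyte-monocyte cells) and GMP (granulocyte-monocyte progenitors) came from untreated 8-week-old mice of 3 genotypes, with 4 libraries in each of the 12 groups. The genotypes were Kmt2c f/f; Vav-Cre (ko), Kmt2c f/+; Vav-Cre (het) and wild type (wt). In experiment 2, HSC and HPC came from 8-week-old ko and wt mice, in 8 groups. The mice were given IL-1 (interleukin 1, 0.5 µg per mouse) or the vehicle PBS, each for 3 days. The HSC groups had 4 libraries each, except for 3 of wt HSC after IL-1, and the HPC groups had 3 libraries each. For the HSC libraries of experiment 2 the titles and source names read HSC while the cell type entry reads HPC, and the titles were followed. In wt cells of both experiments, all 8 listed HSC markers were lower and all 5 listed HPC markers higher in HPC than in HSC. Vav-Cre deletes floxed alleles in blood cells generally, and ko and het both carry it. The labels of wt name no Vav-Cre, so ko against wt cannot tell the loss of Kmt2c apart from the presence of Cre. No label says that replicates were separate animals, and each p-value then reflects only how much libraries of a group differ.

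The best known relatives of these genes are Ms4a1, which encodes the B-cell antigen CD20, and Ms4a2, the β chain of the high-affinity IgE receptor of mast cells and basophils. In mouse, several Ms4a proteins also act as chemoreceptors in the olfactory system. Ms4a3 is a marker of granulocyte-monocyte progenitors, and human MS4A3 has been tied to control of the cell cycle. Ms4a4b and Ms4a6b were studied mainly in T cells, where both associate with the co-stimulatory receptor GITR. Ms4a4c, Ms4a6c and Ms4a6d are expressed in monocytes and other myeloid cells, and Ms4a7 is typical of tissue macrophages. IL-1 is an inflammatory cytokine that drives stem and progenitor cells toward granulocytes and monocytes.

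All 7 genes lie in 1 cluster of 320 kb on chromosome 19 (GRCm38, GENCODE M21) and are protein coding. Ms4a7 (ENSMUSG00000024672) spans 19:11321039-11336146 on the minus strand, Ms4a4c (ENSMUSG00000024675) 19:11404770-11427246, Ms4a4b (ENSMUSG00000056290) 19:11443553-11467055, Ms4a6c (ENSMUSG00000079419) 19:11469366-11482192 and Ms4a6b (ENSMUSG00000024677) 19:11516512-11531256, these 4 on the plus strand. Ms4a6d (ENSMUSG00000024679) spans 19:11586604-11604849 and Ms4a3 (ENSMUSG00000024681) 19:11629496-11640851, both on the minus strand. Stretches upstream of the RefSeq start of 5 members are shown because Ms4a6b and Ms4a6c fell together in ko HSC, Ms4a4b and Ms4a4c are close copies, and Ms4a3 had the highest level of the 7 in GMP. The sequences are from RefSeq (GRCm38.p6), read 5′ to 3′ on the gene's own strand. The RefSeq starts used for Ms4a6b and Ms4a4c lie well inside the GENCODE spans given above, so these 2 stretches are upstream of the RefSeq start only. Capitals mark GGAAGT on either strand (ACTTCC on the other), the core of many sites of ETS-family factors such as PU.1, and the run GAAAGTGAA.
Ms4a6b, chr19:11518309-11518558, plus strand: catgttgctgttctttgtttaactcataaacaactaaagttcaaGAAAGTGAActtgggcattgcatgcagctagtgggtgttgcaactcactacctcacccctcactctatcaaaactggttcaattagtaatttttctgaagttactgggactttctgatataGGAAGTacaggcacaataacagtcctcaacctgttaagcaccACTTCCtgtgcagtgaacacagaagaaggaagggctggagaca
Ms4a6c, chr19:11469118-11469367, plus strand: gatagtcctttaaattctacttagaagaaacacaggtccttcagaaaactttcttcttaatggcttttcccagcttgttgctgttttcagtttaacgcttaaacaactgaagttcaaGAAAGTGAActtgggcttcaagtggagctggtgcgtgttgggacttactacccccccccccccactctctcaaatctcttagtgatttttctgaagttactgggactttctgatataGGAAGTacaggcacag
Ms4a4b, chr19:11443458-11443557, plus strand: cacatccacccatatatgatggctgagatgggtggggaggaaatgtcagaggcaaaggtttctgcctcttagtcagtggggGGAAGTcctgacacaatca
Ms4a4c, chr19:11407561-11407660, plus strand: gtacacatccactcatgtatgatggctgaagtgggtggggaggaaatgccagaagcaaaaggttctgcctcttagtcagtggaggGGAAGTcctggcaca
Ms4a3, chr19:11640852-11640951, minus strand: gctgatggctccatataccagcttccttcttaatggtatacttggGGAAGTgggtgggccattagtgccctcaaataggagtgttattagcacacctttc

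Windows from 250 bases before to 50 bases after the RefSeq start were found for 6 of the 7 genes. The windows of Ms4a6b and Ms4a6c shared an identical run of 48 bases, and those of Ms4a4b and Ms4a4c a run of 20 bases, against 7 to 12 bases for the other 13 pairs of windows. GGAAGT on either strand was in a window of all 6 genes and in 23.8% of 32851 windows genome-wide. In Ms4a6c it began at position -16 from the start, in Ms4a6b at -85 and -43, and in Ms4a3 at -55. GAAAGTGAA on either strand was in the windows of Ms4a6b and Ms4a6c and in 0.581% of all windows, and its letters were chosen after the sequences were seen. It began at position -206 in Ms4a6b and -133 in Ms4a6c. These are matches of letters, and binding was not measured.

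The likeness extends into the transcripts, which bears on the counts. Of the 50-base stretches of Ms4a6c exons, 10.5% also occur in another gene on the same strand, as do 8.19% of those of Ms4a4c, 3.57% of Ms4a6b, 2.54% of Ms4a6d, 2.4% of Ms4a4b, 0.306% of Ms4a7 and none of the 1880 of Ms4a3. Ms4a6b shared 117 such stretches with Ms4a6c and 40 with Ms4a6d, and Ms4a4b shared 135 with Ms4a4c. Ms4a6c also overlaps BE692007, a transcript on the opposite strand, over 12027 bases, and 51.4% of its stretches occur elsewhere when both strands are searched. No source used here states whether the strand was kept, so reads of this pair cannot be told apart, and values of the close copies are uncertain to the extent of the shared stretches.

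Experiment 1 had 48 libraries of 13.3 to 20.8 M reads counted in genes (median 16.0 M), and experiment 2 had 27 libraries of 18.6 to 42.8 M (median 32.7 M). Levels are CPM, a gene's counts divided by the library total and brought to a common total after TMM scaling. The scaling was done within each experiment, so levels are not compared across the experiments. Kmt2c averaged 16.2 CPM in ko HSC and 52.0 CPM in wt HSC of experiment 1, and it was called lower in ko than in wt in all 4 populations and, in experiment 2, in every comparison but HSC after IL-1. There it averaged 15.1 CPM in ko and 32.5 CPM in wt (-1.16, adjusted p = 0.279), and the library of wt HSC after IL-1 replicate 1 stood apart: it held 14.5 CPM of Kmt2c before scaling, against 39.7 and 39.5 CPM in replicates 2 and 3. That value lay within the range of the ko HSC libraries after IL-1 (12.3 to 18.4 CPM before scaling). Whether the genotype label of this library is right was not tested, and it was kept as wt. The calls that depend on this library are given with and without it. In experiment 1 the replicate 4 libraries of HSC, HPC and pGM had a higher summed level of the neutrophil list, before scaling, than replicates 1 to 3: 2979 to 3460 against 11.2 to 126.3 CPM in HSC, 804.7 to 3112 against 16.3 to 148.5 CPM in HPC, and 786.4 to 915.8 against 44.2 to 167.7 CPM in pGM. In GMP the ranges overlapped, at 349.4 to 669.5 and 92.8 to 845.2 CPM. The summed Y-linked level in experiment 2 had a median of 0.0863 CPM in ko libraries and 146.8 CPM in wt libraries. The ranges were 0 to 151.5 CPM and 0.0368 to 223.1 CPM. In HPC after PBS the genotypes were alike in it, at 0.0820, 151.5 and 0.1635 CPM in ko and 0.101, 0.0741 and 219.8 CPM in wt. In experiment 1 it was 0.241 to 0.625 CPM in replicates 1 and 4 of every ko population, and 68.1 CPM or more in every het and wt library. Some of these also held Xist, an RNA of female cells: wt HSC replicates 2, 3 and 4 had 60.3, 76.9 and 83.2 CPM. The Y-linked level is thus no full record of sex. Over each experiment as a whole, genotype and sex cannot be fully told apart. These are bulk samples, in which fewer cells of a type and less RNA per cell cannot be told apart.

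Levels between genes are compared on a scale of CPM per kilobase of exon. The length is that of all annotated exons of a gene merged, from 1735 bases for Ms4a6d to 8780 bases for Ms4a4b. The order of the genes depends on these lengths. In wt HPC, for example, Ms4a4b (3.84 CPM) and Ms4a4c (3.89 CPM) were alike before the division by length. In wt HPC, pGM and GMP the 7 genes stood in the same order, and the order in HSC differed. In wt HSC, Ms4a6c (16.1 ± 1.90), Ms4a6b (15.03 ± 1.23) and Ms4a3 (14.1 ± 9.44 CPM per kb, SD, n = 4) were within each other's spread. Ms4a6d followed at 2.30 ± 0.799 CPM per kb, and Ms4a4c, Ms4a7 and Ms4a4b were at 0.614, 0.284 and 0.196 CPM per kb. In wt HPC the same 3 genes led, with Ms4a3 at 19.8, Ms4a6c at 15.9 and Ms4a6b at 14.3 CPM per kb, followed by Ms4a4c at 2.22, Ms4a6d at 1.099, Ms4a4b at 0.437 and Ms4a7 at 0.247 CPM per kb. In wt pGM, Ms4a3 (122 ± 24.3) and Ms4a6c (96.5 ± 13.3 CPM per kb) stood above Ms4a6b (17.5 ± 2.16 CPM per kb). In wt GMP, Ms4a3 reached 2131 ± 208 CPM per kb, then came Ms4a6c at 143 ± 15.6, Ms4a6b at 21.5 ± 1.48, Ms4a4c at 13.9 ± 0.841, Ms4a6d at 5.58 ± 1.67, Ms4a4b at 0.860 ± 0.160 and Ms4a7 at 0.0275 ± 0.0441 CPM per kb. On this scale each of the 7 genes in wt GMP was separated from the next by more than the sum of their SDs. In CPM, Ms4a6d (9.68 ± 2.89) and Ms4a4b (7.55 ± 1.41) were not separated in this way.

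Across wt populations of experiment 1, Ms4a3 and Ms4a6c rose in pGM and again in GMP, Ms4a4b and Ms4a4c rose in HPC and again in pGM, Ms4a6d rose in GMP, and no step of Ms4a6b was called. Of the 7 genes, 2 were called higher in HPC than in HSC (12.5% of all genes fitted were called higher and 22.8% in either direction), 4 in pGM than in HPC (5.59% and 12%) and 3 in GMP than in pGM (11% and 29%), and none was called lower. Called means an adjusted p under 0.05 in edgeR's quasi-likelihood test with Benjamini-Hochberg adjustment over all genes. Where libraries are said to lie apart or not to overlap, this only describes the values. The share of all genes that do so is not given, and with so few libraries groups can separate by chance. Such a gap without a call is not taken as a difference. The median log2 fold change of the 7 was 0.00, 1.49 and 0.60 at the 3 steps, and that of all genes was -0.11 at the last step, the only one where it passed 0.1 in size.

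Ms4a3 had 19.02, 13.3, 20.98 and 52.8 CPM in the wt HSC libraries, where the highest is replicate 4, and 42.7, 31.2, 35.4 and 39.6 CPM in wt HPC. It had 206, 194, 224 and 297 CPM in wt pGM and 4387, 4045, 4157 and 3468 CPM in wt GMP. The HSC and HPC libraries overlapped, and both later steps separated every library. HPC and HSC differed by a log2 fold change of 0.51 (adjusted p = 0.565), pGM was 6.30-fold above HPC (2.65 ± 0.58 log2 ± SE, adjusted p = 0.00171), and GMP was 17.8-fold above pGM (4.15 ± 0.62, adjusted p = 1.6e-06).

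Ms4a6c had 28.8, 32.7, 32.3 and 38.2 CPM in wt HSC, 30.8, 41.2, 30.8 and 27.8 CPM in wt HPC, 184, 166, 223 and 218 CPM in wt pGM, and 309, 264, 331 and 271 CPM in wt GMP. HSC and HPC overlapped, and pGM and GMP each lay wholly above the population before it. The step to pGM was 6.16-fold (2.62 ± 0.23, adjusted p = 2.43e-11), and the step to GMP was small (0.60 ± 0.22, adjusted p = 0.0328). That last call was lost without GMP replicate 1 or 3 or pGM replicate 1 or 2, with adjusted p between 0.0697 and 0.109.

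Ms4a4b and Ms4a4c were low in HSC, at means of 1.72 ± 0.413 and 1.07 ± 1.43 CPM in wt libraries (SD, n = 4). The Ms4a4c libraries held 0.0493, 0.116, 1.02 and 3.11 CPM, with replicate 4 the highest. In wt HPC the means were 3.84 ± 1.14 CPM for Ms4a4b and 3.89 ± 1.16 CPM for Ms4a4c, and in wt pGM they were 10.6 ± 1.90 and 14.4 ± 2.34 CPM. Both genes were called higher in HPC than in HSC (log2 fold change 1.17 ± 0.39 with adjusted p = 0.0248 for Ms4a4b, and 1.87 ± 0.60 with adjusted p = 0.0198 for Ms4a4c) and in pGM than in HPC (1.49 ± 0.38 with adjusted p = 0.00554, and 1.91 ± 0.55 with adjusted p = 0.0163). In GMP, Ms4a4b averaged 7.55 CPM and Ms4a4c 24.4 CPM, and neither differed from pGM by the test (adjusted p = 0.365 and 0.265). The calls between HPC and HSC depended on single libraries. That of Ms4a4b was lost without HPC replicate 2 (adjusted p = 0.107) or HSC replicate 1 (0.0644) or 3 (0.0768). That of Ms4a4c was lost without HPC replicate 2 (0.0531) or 3 (0.0513) or HSC replicate 1 (0.0787) or 2 (0.0732), and its log2 fold change was 3.29 without HSC replicate 4. Without HPC replicate 1 or 4, Ms4a4c also lost its call between pGM and HPC (adjusted p = 0.0563 and 0.0576).

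Ms4a6b varied little across wt populations, with 60.3 to 72.0 CPM in HSC, 55.6 to 74.8 in HPC, 68.7 to 91.4 in pGM and 90.8 to 106 CPM in GMP, and none of its steps was called. Ms4a6d had 2.17, 5.54, 4.14 and 4.11 CPM in wt HSC, 1.48, 2.24, 1.38 and 2.53 in wt HPC, 2.91, 1.21, 3.68 and 2.35 in wt pGM, and 7.79, 9.92, 13.7 and 7.34 CPM in wt GMP. GMP lay above pGM in every library, 3.88-fold in the fit (1.96 ± 0.50, adjusted p = 0.00226), and the lower values in HPC than in HSC did not pass (-1.05 ± 0.50, adjusted p = 0.129). Ms4a7 stayed between 0 and 2.25 CPM in all 48 libraries and could not be fitted within GMP. Of 12 other genes of the granulocyte-monocyte list, 5 were higher in HPC than in HSC, 8 in pGM than in HPC and 9 in GMP than in pGM.

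**Figure D1:**
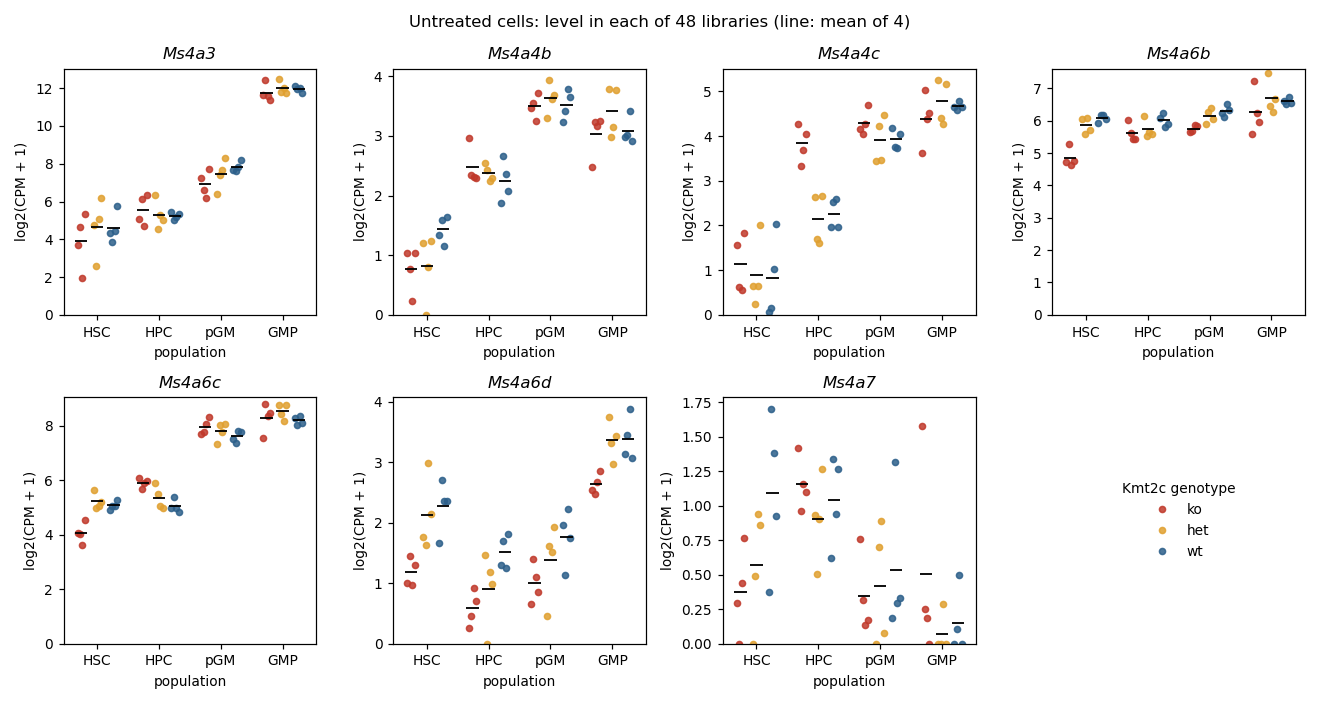
Levels of the 7 Ms4a genes in the 48 libraries of experiment 1, on a log axis of log2(CPM + 1). Each point is a library, columns are ko, het and wt within HSC, HPC, pGM and GMP, and the line is the group mean on that scale. Ms4a3 reaches 4014 CPM in wt GMP, and Ms4a6b lies lower in ko HSC (28.1 CPM) than in wt HSC (67.4 CPM).

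In untreated ko HSC, Ms4a6b and Ms4a6c were lower than in wt HSC: 2 of the 7 genes fell, and 1.21% of all genes fitted were called lower (1.78% in either direction). The median log2 fold change of the 7 was -1.21, against 0.01 for all genes. Ms4a6b had 25.2, 37.5, 23.7 and 26.1 CPM in ko HSC, against 64.8, 47.3, 66.2 and 52.0 in het HSC and 60.3, 71.5, 72.0 and 65.8 CPM in wt HSC. Every ko library lay below every het and wt library. The level was 2.41-fold lower in ko than in wt (-1.27 ± 0.17, adjusted p = 0.000528) and also lower in ko than in het (-1.04 ± 0.17, adjusted p = 0.00929). The second call was lost with the Y-linked level as a covariate (adjusted p = 0.128) and without replicate 4 of every group (0.062).

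Ms4a6c had 15.8, 15.2, 11.4 and 22.2 CPM in ko HSC, against 49.5, 31.0, 32.6 and 35.7 in het HSC and 28.8, 32.7, 32.3 and 38.2 CPM in wt HSC. Again no ko library reached the lowest het or wt library. The level was 2.06-fold lower in ko than in wt (-1.04 ± 0.21, adjusted p = 0.0132) and lower in ko than in het (-1.21 ± 0.21, adjusted p = 0.0132). The call against wt was lost without ko replicate 1 (adjusted p = 0.0564) or wt replicate 4 (0.0677), and the call against het without het replicate 1 (0.0552) or ko replicate 1 (0.0704). The overlapping transcript BE692007 moved the same way, at 0.573 to 1.86 CPM in ko HSC, 2.02 to 4.12 in het and 2.63 to 3.69 CPM in wt (before scaling), and its part in the Ms4a6c counts was not tested.

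Ms4a6d had 0.996, 1.72, 0.957 and 1.46 CPM in ko HSC, against 2.41, 2.09, 6.93 and 3.40 in het and 2.17, 5.54, 4.14 and 4.11 CPM in wt. The ko libraries lay below all others, and the difference from wt did not pass (-1.64 ± 0.43, adjusted p = 0.0677), though it did without wt replicate 1 (adjusted p = 0.0399) and in DESeq2 (adjusted p = 0.00985). Ms4a4b also did not overlap between ko (0.179 to 1.05 CPM) and wt (1.24 to 2.11 CPM), with an adjusted p of 0.614. Ms4a7 had 0.226, 0, 0.359 and 0.703 CPM in ko and 0.296, 2.25, 1.61 and 0.896 CPM in wt (adjusted p = 0.466). Ms4a3 had 12.2, 24.0, 2.93 and 38.9 CPM in ko and 19.02, 13.3, 20.98 and 52.8 CPM in wt, and Ms4a4c had 1.95, 0.538, 0.478 and 2.58 CPM in ko and 0.0493, 0.116, 1.02 and 3.11 CPM in wt. Both of these overlapped widely, with replicate 4 the highest in each group, as it was for the neutrophil list.

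Markers of macrophages, the cells in which Ms4a7 and Ms4a6d are known best, were also lower in ko HSC. Of 9 macrophage genes fitted, 3 fell: Hmox1 (heme oxygenase, -2.67, adjusted p = 0.00133), Cd163 (a hemoglobin scavenger receptor, -1.17, adjusted p = 0.0389) and C1qb (a complement component, -1.90, adjusted p = 0.0455). The summed level of the list was 18.7 to 37.0 CPM in ko HSC, 16.1 to 72.9 CPM in het HSC and 66.7 to 139.9 CPM in wt HSC. The het range overlapped both. Marco was at 0 in all 4 het HSC libraries, and no gene of the list was at 0 in all ko or all wt libraries. The part of such cells in the Ms4a differences was not tested. Of the 4 T and NK cell genes fitted, Nkg7, a cytotoxic granule protein, was called lower in ko HSC. Among wt populations Nkg7 was highest in GMP, with a mean of 3445 CPM against 110.9 CPM in HSC. Cd3e, Cd3g, Trac and Cd8a were at 0 in every wt GMP library. Nkg7 is thus no measure of T or NK cells here.

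In untreated HPC, Ms4a4c was higher in ko than in wt, the 1 of 7 genes called (0.249% of all genes were called higher, 1.1% in either direction). In HSC this gene was not called and its ko and wt libraries overlapped. It had 18.3, 9.09, 11.9 and 15.6 CPM in ko HPC, against 5.17, 2.24, 2.04 and 5.29 in het and 2.89, 4.71, 5.06 and 2.88 CPM in wt. All 4 ko libraries lay above all het and wt libraries. The level was 3.53-fold higher in ko than in wt (1.82 ± 0.37, adjusted p = 0.0174) and higher than in het (1.89 ± 0.37, adjusted p = 0.043, where 0.0226% of all genes were called higher and 0.196% in either direction). Both calls rested on single libraries. The call against wt was lost without ko replicate 1 or 4 or wt replicate 1 or 4 (adjusted p 0.0584 to 0.0802), with the Y-linked level as a covariate (0.165), without replicate 4 of every group (0.174) and with the replicate number as a block (0.0606). With all libraries in 1 fit Ms4a4c was not called (0.106) and Ms4a6c was (0.0316). The call against het was lost without het replicate 2 or 3 or ko replicate 1, 3 or 4 (0.0939 to 0.199), with the block (0.107), the Y-linked covariate (0.598), without replicate 4 of every group (0.142) and in 1 fit (0.172). The 2 highest ko libraries, replicates 1 and 4, are those without Y-linked RNA.

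Ms4a6c in HPC had 66.6, 49.9, 59.3 and 62.0 CPM in ko, against 59.4, 44.4, 32.1 and 30.2 in het and 30.8, 41.2, 30.8 and 27.8 CPM in wt. The ko libraries lay above all wt libraries and overlapped het. The difference from wt did not pass (0.87 ± 0.22, adjusted p = 0.0732), and did in DESeq2 (adjusted p = 0.0101). Ms4a6b averaged 49.1 CPM in ko HPC and 64.1 CPM in wt HPC (-0.38 ± 0.19, adjusted p = 0.663). Ms4a6d had 0.193 to 0.894 CPM in ko and 1.38 to 2.53 CPM in wt, with no overlap (-1.87 ± 0.76, adjusted p = 0.461). Of 12 granulocyte-monocyte genes, Prtn3 (proteinase 3, 0.89, adjusted p = 0.00559) and Ly86 (MD-1, a partner of the receptor RP105, 1.47, adjusted p = 0.0374) also rose in ko HPC. The macrophage list summed to 36.8 to 92.7 CPM in ko HPC, 28.4 to 128.8 CPM in het HPC and 90.0 to 160 CPM in wt HPC. Of 5 T and NK genes Nkg7 (-0.92, adjusted p = 0.00588) and Lck (-0.99, adjusted p = 0.00992) fell in ko HPC, and of 7 HSC genes Procr fell (-0.996, adjusted p = 0.0186).

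In untreated pGM, Ms4a6b was the 1 of 7 genes called, and it was lower in ko (1.53% of all genes were called lower, 1.94% in either direction). It had 49.0, 50.4, 57.1 and 56.3 CPM in ko, against 59.1, 75.8, 83.0 and 65.3 in het and 74.4, 68.7, 91.4 and 80.0 CPM in wt. The ko libraries lay below all others, 1.46-fold below wt in the fit (-0.55 ± 0.12, adjusted p = 0.0273). The call was lost without ko replicate 1, 2 or 3 or wt replicate 1, 3 or 4 (adjusted p 0.0519 to 0.125), with the Y-linked covariate (0.137), without replicate 4 of every group (0.0776) and with all libraries in 1 fit (0.502). Ms4a6c had 205, 219, 264 and 320 CPM in ko pGM and 184, 166, 223 and 218 CPM in wt pGM (0.37 ± 0.16, adjusted p = 0.481). Ms4a3 had 150, 95.4, 71.8 and 208 CPM in ko and 206, 194, 224 and 297 CPM in wt (-0.79, adjusted p = 0.693).

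Genes of the lists for other cell types also differed in ko pGM, though some of them, such as Nkg7, are expressed by the progenitors themselves. Of 8 mast cell and basophil genes fitted, 3 fell, among them the mast cell carboxypeptidase Cpa3 (-1.57, adjusted p = 8e-05). Of 5 T and NK cell genes, Nkg7 (-0.86, adjusted p = 9.79e-05) and the T cell kinase Lck (-1.41, adjusted p = 9.29e-05) fell and Cd4 (1.12, adjusted p = 0.0345) rose. The T and NK list summed to 458.9 to 599.8 CPM in ko, 902.8 to 995.9 CPM in het and 924.6 to 1132 CPM in wt, most of it Nkg7, and Cd3e and Cd8a were at 0 in every het and wt pGM library. Of 10 monocyte genes Csf1r rose (0.68, adjusted p = 0.0406), and of 5 HPC genes Dntt, a lymphoid polymerase, fell (-1.36, adjusted p = 0.000136). Their part in the Ms4a6b difference was not tested.

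In untreated GMP 0 of 6 genes fitted were called between ko and wt (0.555% of all genes were), with 1 at an unadjusted p under 0.05 (9.32% of all genes) and 0 called by DESeq2 (1.66%). Ms4a6d had 4.79, 4.54, 5.36 and 6.24 CPM in ko, against 12.4, 8.92, 6.85 and 9.84 in het and 7.79, 9.92, 13.7 and 7.34 CPM in wt. Its ko libraries lay below all others, without passing (-0.88 ± 0.25 against wt, adjusted p = 0.18). Ms4a3 had 3246, 5537, 3068 and 2695 CPM in ko GMP and 4387, 4045, 4157 and 3468 CPM in wt GMP, which overlapped.

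Het against wt gave no call among the members. Kmt2c itself was not called there by edgeR either. Its log2 fold changes were -0.53, -0.35, -0.37 and -0.63 in HSC, HPC, pGM and GMP (adjusted p = 0.807, 0.963, 0.79 and 0.973). As for ko against wt, this comparison cannot tell the loss of Kmt2c apart from the presence of Cre. Between het and wt, 0 of the 7 genes in HSC, HPC and pGM and 0 of the 6 fitted in GMP were called by edgeR or DESeq2 or had an unadjusted p under 0.05, where 0.00724%, 0.00753%, 0.0155% and 0.00828% of all genes were called by edgeR in HSC, HPC, pGM and GMP. DESeq2 called 0.149%, 0.078%, 0.471% and 0.00466% of all genes there, and 5.49%, 4.22%, 7.35% and 2.78% had an unadjusted p under 0.05. Between ko and het, 2 of 7 were called in HSC (0.326% of all genes, 0.268% lower), 1 in HPC, and 0 in pGM (0.564%) and GMP (0.0166%). In the last 2 populations 1 gene each had an unadjusted p under 0.05 (8.59% of all genes in pGM and 4.45% in GMP), and DESeq2 called 0 (1.39% and 0.278% of all genes).

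**Figure D2:**
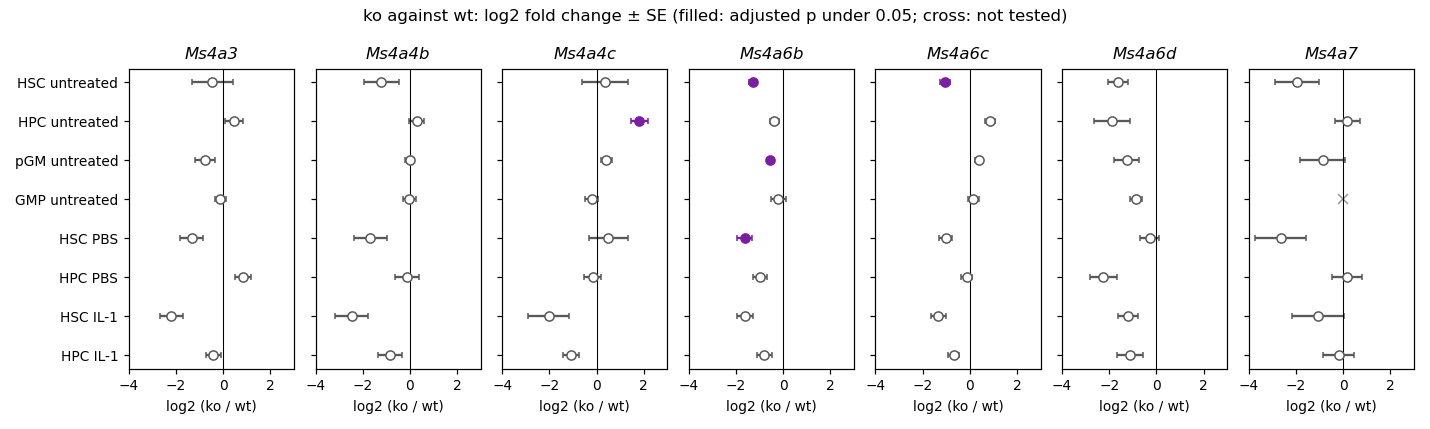
Log2 fold changes of ko over wt for each gene, with bars of 1 SE, in the untreated populations of experiment 1 and in HSC and HPC after IL-1 and PBS in experiment 2. Filled points have an adjusted p under 0.05, and a cross marks a gene not fitted. Ms4a6b is negative in every comparison shown, while Ms4a6c is negative in HSC (-1.04 untreated) and positive in untreated HPC (0.87).

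The change of Ms4a6c in ko differed between populations of experiment 1. The log2 fold change of ko over wt was larger in HPC than in HSC by 1.89 ± 0.31 (adjusted p = 0.000527) and larger in pGM than in HSC by 1.38 ± 0.31 (adjusted p = 0.0411). In each case 1 of the 7 genes was called. Of all genes 0.232% were called for HPC (0.159% with a positive difference) and 0.218% for pGM (0.0993% with a positive difference). The HPC difference held whichever library was left out, between 1.76 and 2.08. The pGM difference was lost without HSC ko replicate 1, 2 or 3, HSC wt replicate 2, 3 or 4, pGM ko replicate 3 or 4 or pGM wt replicate 1 or 2 (adjusted p 0.0623 to 0.142). The GMP difference of 1.17 ± 0.31 did not pass (adjusted p = 0.0757, with 0.39% of all genes called), where 4 of the genes had an unadjusted p under 0.05 (9.65% of all genes) and DESeq2 called 1 (1.19%). It did pass without GMP ko replicate 1 (0.0172) or HSC ko replicate 4 (0.0346). For Ms4a6b the corresponding difference between HPC and HSC was 0.87 ± 0.33 (adjusted p = 0.578). BE692007, which overlaps Ms4a6c, had 3.33 to 4.59 CPM in ko HPC and 1.19 to 3.23 CPM in wt HPC, and thus also lay higher in ko HPC and lower in ko HSC. The difference between populations was not tested in experiment 2. After PBS, Ms4a6c there averaged 28.96 CPM in ko HPC and 31.45 CPM in wt HPC. In HSC it averaged 13.99 CPM in ko and 28.9 CPM in wt.

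The PBS groups of experiment 2 gave a further set of HSC and HPC libraries. Ms4a3 had 5.43, 7.39 and 4.55 CPM in wt HPC and 1.76, 0.890, 1.37 and 0.777 CPM in wt HSC, with no overlap (2.25 ± 0.42, adjusted p = 0.00044). Ms4a4c had 6.67, 4.09 and 2.77 CPM in wt HPC and 0.793, 0.0330, 0.618 and 0.777 CPM in wt HSC, again apart (3.00 ± 0.65, adjusted p = 0.00206). These were the 2 of 7 genes called between the populations, and 13.8% of all genes were (6.46% higher in HPC). Ms4a4b also did not overlap, at 3.50 to 5.12 CPM in HPC and 0.859 to 2.17 CPM in HSC (1.43 ± 0.63, adjusted p = 0.146), and it passed with the replicate number as a block (0.0114).

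After PBS, Ms4a6b again was lower in ko HSC, the 1 of 7 genes called (0.562% of all genes were called lower, 0.798% in either direction). It had 21.7, 20.3, 16.9 and 22.8 CPM in ko HSC and 60.0, 54.9, 62.5 and 78.6 CPM in wt HSC. The groups lay far apart, at 3.11-fold (-1.64 ± 0.32, adjusted p = 0.0212). Leaving out ko replicate 1 (adjusted p = 0.0687), 2 (0.0761) or 3 (0.0757) or wt replicate 4 (0.0548) ended the call. Ms4a6c had 12.8, 13.4, 11.4 and 18.3 CPM in ko and 35.6, 21.3, 30 and 28.7 CPM in wt, with no overlap and no call (-1.03 ± 0.29, adjusted p = 0.138), though DESeq2 called it (0.0435). The median of the 7 log2 fold changes was -1.33. Of 9 macrophage genes, Cd163 (-1.05, adjusted p = 0.0284) and Vcam1 (-2.14, adjusted p = 0.0207) fell, and the list summed to 21.9 to 37.8 CPM in ko and 84.8 to 103.1 CPM in wt. The part of those cells, and of the difference in Y-linked level, was not tested beyond the covariate.

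In HPC after PBS 0 of 7 genes were called between ko and wt (0.257% of all genes), with 3 at an unadjusted p under 0.05 (9.04% of all genes) and 1 called by DESeq2 (1.38%). That 1 was Ms4a6d, with 0.279, 0.178 and 0.815 CPM in ko and 1.51, 2.17 and 2.39 CPM in wt, which did not overlap (-2.24 ± 0.57, adjusted p = 0.17, DESeq2 adjusted p = 0.0126). Ms4a6b had 24.4, 23.1 and 29.7 CPM in ko and 48.3, 57.7 and 46.5 CPM in wt, also apart (-0.996 ± 0.30, adjusted p = 0.292). Ms4a4c, which was higher in untreated ko HPC, had 3.69, 4.28 and 4.27 CPM in ko and 6.67, 4.09 and 2.77 CPM in wt after PBS (-0.16, adjusted p = 0.927). Ms4a6c had 27.6, 23.7 and 35.6 CPM in ko and 36.6, 27.2 and 30.5 CPM in wt (-0.13, adjusted p = 0.904). The experiments are separate tables with different depths, and the difference between them was not tested.

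**Figure D3:**
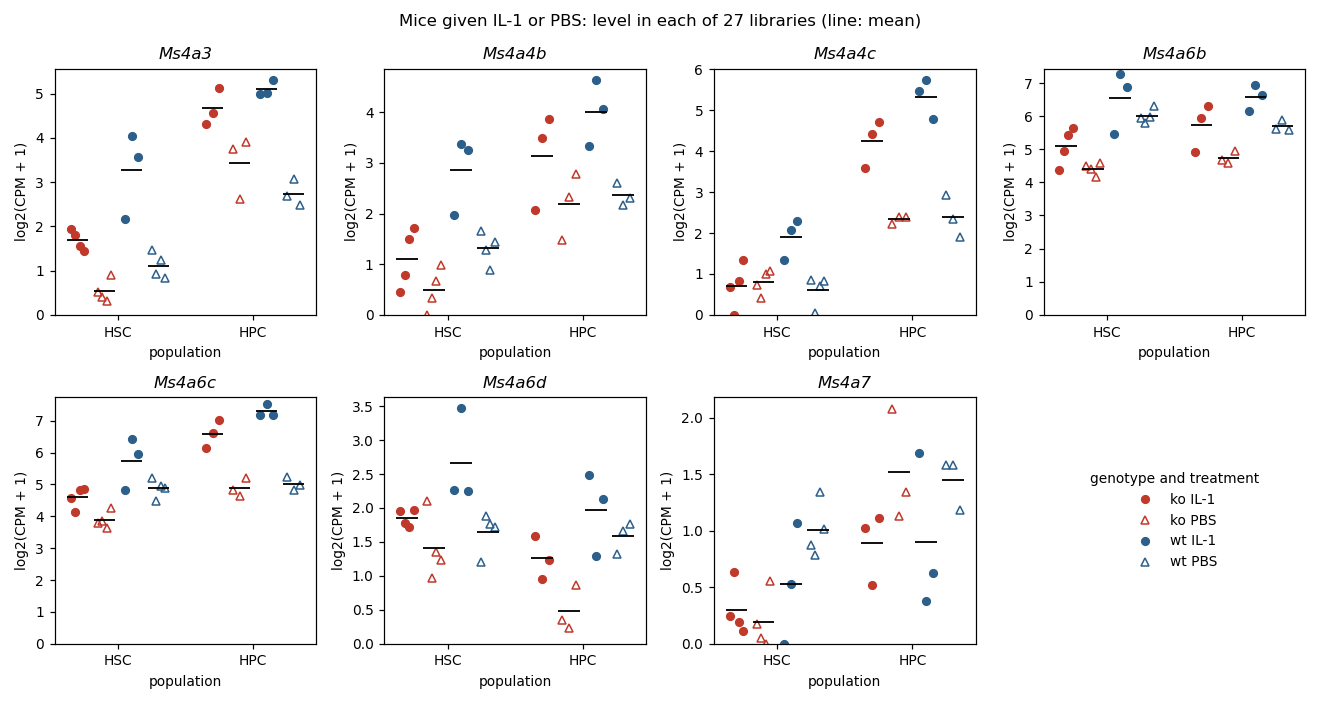
Levels of the 7 genes in the 27 libraries of experiment 2, on a log axis of log2(CPM + 1), with columns of ko and wt after IL-1 and after PBS within HSC and HPC. Points are libraries and lines are group means on that scale. Ms4a4c averages 40.6 CPM in wt HPC after IL-1 and 4.51 CPM after PBS.

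IL-1 raised Ms4a3, Ms4a4c and Ms4a6c in wt HPC. These 3 of the 7 genes were called higher (0.702% of all genes were, 0.947% in either direction), and 0 were called lower. The median of the 7 log2 fold changes was 1.94. Ms4a4c had 43.1, 52.2 and 26.5 CPM after IL-1 and 6.67, 4.09 and 2.77 CPM after PBS. The groups were far apart, at 8.82-fold (3.14 ± 0.38, adjusted p = 0.00072). Ms4a3 had 30.6, 31.4 and 38.8 CPM after IL-1 and 5.43, 7.39 and 4.55 CPM after PBS. It too separated every library, at 5.72-fold (2.51 ± 0.35, adjusted p = 0.00222). Ms4a6c had 143, 184 and 144 CPM after IL-1 and 36.6, 27.2 and 30.5 CPM after PBS. Its change was 4.93-fold (2.30 ± 0.24, adjusted p = 0.000252). All 3 calls held under each alternative and without any single library. BE692007 moved with Ms4a6c, at 8.79 to 13.4 CPM after IL-1 and 2.26 to 2.92 CPM after PBS.

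Ms4a4b had 9.12, 23.8 and 15.7 CPM in wt HPC after IL-1 and 5.12, 3.50 and 3.93 CPM after PBS. The groups did not overlap and the gene was not called (1.94 ± 0.52, adjusted p = 0.116), though DESeq2 called it (0.00573). Ms4a6b had 70.2, 121 and 99.0 CPM after IL-1 and 48.3, 57.7 and 46.5 CPM after PBS, likewise apart (0.91 ± 0.30, adjusted p = 0.249). Ms4a6d (0.60, adjusted p = 0.806) and Ms4a7 (-0.82, adjusted p = 0.773) overlapped. Monocyte markers rose beside them: 4 of 10 were called, Cybb (the NADPH oxidase subunit gp91phox, 2.78, adjusted p = 0.00124), the chemokine receptors Cx3cr1 (2.14, 0.000477) and Ccr2 (1.98, 0.0032), and Csf1r (the M-CSF receptor, 1.52, 0.0111). The monocyte list summed to 573.5 to 627.3 CPM after IL-1 and 300.4 to 402.7 CPM after PBS, and its part in the Ms4a values was not tested. Of 12 granulocyte-monocyte genes Ly86 was called (2.90, adjusted p = 0.00124), and of 16 interferon-response genes Ly6a, which encodes the stem cell antigen Sca-1 (1.25, adjusted p = 0.00887). The granulocyte-monocyte list had a median log2 fold change of 0.456. Its sums overlapped, at 1179 to 2055 CPM after IL-1 and 1039 to 1729 CPM after PBS. Mpo, its highest gene, averaged 547 CPM after IL-1 and 749.8 CPM after PBS.

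In ko HPC, IL-1 raised Ms4a4c and Ms4a6c, 2 of the 7 genes (0.295% of all genes were called higher, 0.433% in either direction). Ms4a6c had 69.3, 96.0 and 129 CPM after IL-1 and 27.6, 23.7 and 35.6 CPM after PBS, with no overlap, at 3.38-fold (1.76 ± 0.24, adjusted p = 0.00358). Ms4a4c had 11.1, 20.4 and 25.1 CPM after IL-1 and 3.69, 4.28 and 4.27 CPM after PBS, also apart, at 4.62-fold (2.21 ± 0.36, adjusted p = 0.0124). The Ms4a4c call was lost without ko IL-1 replicate 2 or 3 or ko PBS replicate 1, 2 or 3 (adjusted p 0.052 to 0.077). It was also lost with all libraries in 1 fit (adjusted p = 0.228). Ms4a3 had 18.8, 22.5 and 34.2 CPM after IL-1 and 12.4, 5.15 and 14.0 CPM after PBS, without overlap and without a call (1.26 ± 0.34, adjusted p = 0.201). Ms4a6b had 29.1, 60.8 and 77.3 CPM after IL-1 and 24.4, 23.1 and 29.7 CPM after PBS (1.11 ± 0.30, adjusted p = 0.208), and it was called without ko IL-1 replicate 1 (1.43, adjusted p = 0.0102). The monocyte list summed to 423.3 to 740.9 CPM after IL-1 and 435 to 538.1 CPM after PBS, and 1 of its 10 genes, Cx3cr1, was called (2.07, adjusted p = 0.00239).

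In wt HSC, IL-1 raised Ms4a3, the 1 of 7 genes called (0.157% of all genes were called higher, 0.2% in either direction). It had 3.48, 15.6 and 10.9 CPM after IL-1 and 1.76, 0.890, 1.37 and 0.777 CPM after PBS. The groups did not overlap, and the value of 3.48 CPM is that of replicate 1, the library that stood apart. The change was 8.55-fold (3.10 ± 0.49, adjusted p = 0.00826). Without replicate 1 it was 3.50 on the log2 scale (adjusted p = 0.00142), and without replicate 2 it was 2.57 and not called (adjusted p = 0.0873). Ms4a6c had 27.1, 84.6 and 60.6 CPM after IL-1 and 35.6, 21.3, 30 and 28.7 CPM after PBS. Replicate 1 lay among the PBS libraries and the other two above them, and the change was called only without it (1.36, adjusted p = 0.0438, against 1.03 ± 0.31 and 0.255 with it). Ms4a4b had 2.92, 9.33 and 8.57 CPM after IL-1 and 0.859 to 2.17 CPM after PBS, and Ms4a4c had 1.55, 3.19 and 3.91 CPM and 0.0330 to 0.793 CPM. Both were apart without passing (2.21 ± 0.70 with adjusted p = 0.306, and 2.39 ± 0.88 with adjusted p = 0.423). Ms4a6d had 3.79, 10.1 and 3.74 CPM after IL-1 and 1.31 to 2.67 CPM after PBS, also apart (1.47 ± 0.43, adjusted p = 0.236), while Ms4a6b (0.74, adjusted p = 0.603) and Ms4a7 (-1.03) overlapped. Without replicate 1 these 5 genes stayed uncalled, at 2.58 for Ms4a4b, 2.69 for Ms4a4c, 1.71 for Ms4a6d, 1.11 for Ms4a6b and -0.43 for Ms4a7, and 0.223% of all genes were called.

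In ko HSC, IL-1 gave 0 calls among the 7 genes (0.212% of all genes), with 3 at an unadjusted p under 0.05 (8.79% of all genes) and 1 called by DESeq2 (1.03%). That 1 was Ms4a3, with 2.86, 2.52, 1.93 and 1.71 CPM after IL-1 and 0.420, 0.332, 0.234 and 0.877 CPM after PBS. The groups did not overlap (2.23 ± 0.49, adjusted p = 0.0709), and the gene passed in DESeq2 (0.00163) and without ko PBS replicate 4 (0.0241). Ms4a6b had 19.9, 29.6, 42.2 and 48.8 CPM after IL-1 and 21.7, 20.3, 16.9 and 22.8 CPM after PBS, which overlapped in 1 library (0.75, adjusted p = 0.503).

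**Figure D4:**
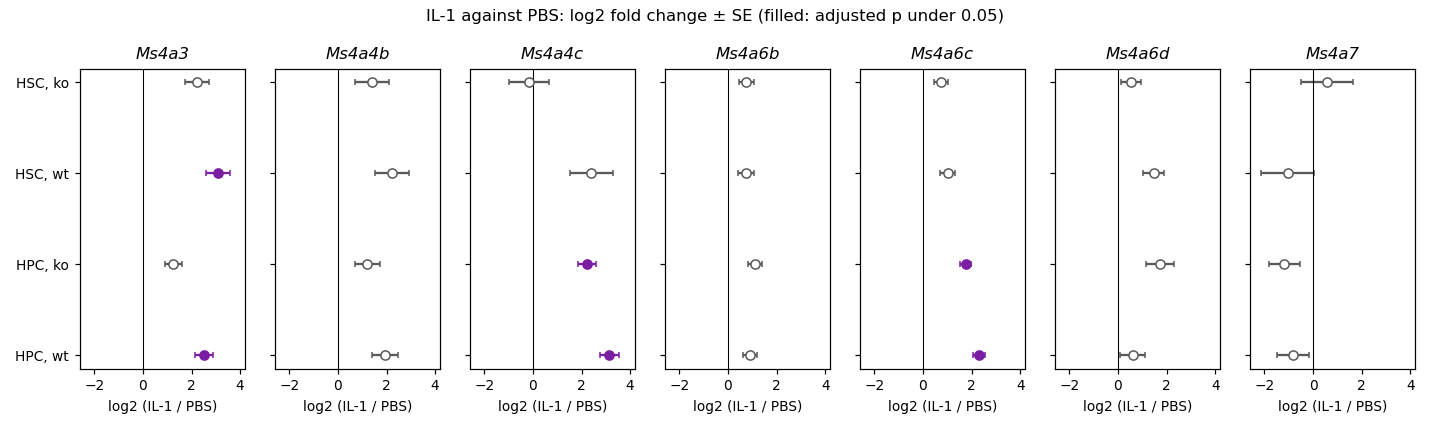
Log2 fold changes of IL-1 over PBS for each gene in ko and wt HSC and HPC, with bars of 1 SE. Filled points have an adjusted p under 0.05. In wt HPC Ms4a4c (3.14), Ms4a3 (2.51) and Ms4a6c (2.30) are filled, and in ko HPC Ms4a4c (2.21) and Ms4a6c (1.76).

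After IL-1 all 7 genes had negative log2 fold changes of ko over wt in both HSC and HPC, and none was called by edgeR. The medians of the 7 were -1.63 and -0.79, against -0.0245 and 0.00271 for all genes. Several members deviated together within groups, as given below, so their signs are not separate observations. In HSC, where 0% of all genes were called, 6 of the 7 had an unadjusted p under 0.05 (8.54% of all genes) and DESeq2 called 4 (0.506% of all genes). In HPC, where 0.201% of all genes were called, 3 had an unadjusted p under 0.05 (5.21%) and DESeq2 called 0 (0.903%). In HSC, Ms4a3 had 2.86, 2.52, 1.93 and 1.71 CPM in ko and 3.48, 15.6 and 10.9 CPM in wt (-2.20 ± 0.47, adjusted p = 0.125). Ms4a6b had 19.9, 29.6, 42.2 and 48.8 CPM in ko and 43.3, 154 and 116 CPM in wt (-1.63 ± 0.34, adjusted p = 0.122). Ms4a3 did not overlap between the groups, and for Ms4a6b the lowest wt library, replicate 1, lay within the range of ko. Without that library 3 of the 7 genes were called lower in ko, where 0.932% of all genes were called in either direction: Ms4a3 (-2.61, adjusted p = 0.00555), Ms4a6b (-1.99, adjusted p = 0.00182) and Ms4a6c (-1.67, adjusted p = 0.00422). Ms4a4b was then at -2.84 (adjusted p = 0.0876), Ms4a4c at -2.34, Ms4a6d at -1.45 and Ms4a7 at -1.66. The macrophage list summed to 19.7 to 28.1 CPM in ko and 25.1 to 80.0 CPM in wt HSC after IL-1. In HPC, Ms4a4c had 11.1, 20.4 and 25.1 CPM in ko and 43.1, 52.2 and 26.5 CPM in wt, and Ms4a6c had 69.3, 96.0 and 129 CPM in ko and 143, 184 and 144 CPM in wt. Neither gene overlapped between the groups, and neither passed (-1.09 ± 0.35 with adjusted p = 0.485, and -0.68 ± 0.23 with adjusted p = 0.587).

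The response to IL-1 was not shown to differ between genotypes. In the test of the difference, 0 of 7 genes and 0% of all genes were called in HSC and in HPC. In each population 1 of the 7 had an unadjusted p under 0.05, Ms4a4c in HSC (a difference of -2.54 ± 1.202 between ko and wt, adjusted p = 0.847) and Ms4a3 in HPC (-1.26 ± 0.48, adjusted p = 1), and DESeq2 called 0. Of all genes, 4.57% in HSC and 2.21% in HPC had an unadjusted p under 0.05, and DESeq2 called 0.0035% and 0.0527%. Without wt HSC IL-1 replicate 1 the Ms4a4c difference was -2.84 (adjusted p = 0.848). Between wt HPC and wt HSC the responses did not differ by the test either: 0 of 7 genes were called by edgeR or DESeq2 (0.0228% of all genes by edgeR), with 1 at an unadjusted p under 0.05 (5.77% of all genes), Ms4a6c (1.31 ± 0.42, adjusted p = 0.63). Without wt HSC IL-1 replicate 1 that difference was 0.98 (adjusted p = 0.655).

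Of 15 other family genes listed, 13 Ms4a genes and the related Tmem176a and Tmem176b, between 2 and 5 were expressed enough to be fitted in a comparison, and none was called between genotypes or by IL-1. Ms4a2 averaged 46.5 ± 3.33 CPM in wt pGM and 1.01 ± 1.101 CPM in wt HPC (SD, n = 4), a log2 fold change of 5.58 (adjusted p = 2.12e-12). It averaged 27.1 ± 4.05 CPM in wt GMP, which did not differ from pGM by the test (-0.75, adjusted p = 0.102), and it was already higher in wt HPC than in wt HSC (1.55, adjusted p = 0.0347). In experiment 2 after PBS it averaged 1.15 ± 1.32 CPM in wt HPC (SD, n = 3) and was at 0 in all 4 wt HSC libraries. Tmem176a and Tmem176b were lower in pGM than in HPC (-0.42, adjusted p = 0.0355, and -0.37, adjusted p = 0.0461) and lower in GMP than in pGM (-1.12, adjusted p = 1.04e-08, and -1.03, adjusted p = 1.47e-08). Tmem176b was also lower in wt HPC than in wt HSC after PBS (-0.56, adjusted p = 0.0417).

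The genes whose profile across the 48 libraries of experiment 1 was most like that of a member differed between members. Pearson's r was taken on log2(CPM + 1) against 10256 genes, over libraries that share population, genotype and depth differences, and is a description only. Ms4a3 was most like the primary granule protease Elane (r = 0.995, and 0.769 over the 27 libraries of experiment 2), the Fc receptor gene Fcgr3 (0.993 and 0.755) and Trem3 (0.988 and 0.816). Ms4a6c was most like Ly86 (0.961 and 0.787), the protease gene Ctsg (0.956 and 0.648) and Rab44 (0.954 and 0.727). Ms4a4c was most like Slc4a8 (0.950 and 0.878), Tifab (0.944 and 0.842) and Lgals1 (0.943 and 0.844). Ms4a6d was nearest to the transcription factor Tfec (0.905 and 0.579), Rab32 (0.866 and 0.570) and Glrx (0.848 and 0.538). Ms4a4b was nearest to Fam111a (0.944 and 0.520), Bzw2 (0.935 and 0.288) and I830077J02Rik (0.924 and 0.848). Ms4a6b was nearest to Tmsb4x (0.834 and 0.714), the DNA sensor Aim2 (0.812 and 0.936) and Ppih (0.799 and 0.227). Ms4a7 was nearest to the macrophage genes C1qb (0.773 and 0.856) and Hmox1 (0.701 and 0.717), then to Zc3h12d (0.638 and 0.178).

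Among the members themselves, deviations from the group means went together with an r over 0.5 in both experiments for 5 of the 21 pairs. These were Ms4a4b with Ms4a6c (r = 0.71 over 48 libraries and 0.737 over 27), Ms4a6b with Ms4a6c (0.621 and 0.794), Ms4a4b with Ms4a4c (0.607 and 0.649), Ms4a4c with Ms4a6c (0.6 and 0.721) and Ms4a4b with Ms4a6b (0.514 and 0.809). Of these, the pairs of Ms4a6b with Ms4a6c and of Ms4a4b with Ms4a4c also share the exon stretches given above. Reads from those stretches may be counted for either gene or for neither, which was not tested. For pairs with Ms4a7 the r was between -0.30 and 0.20 in experiment 1 and between -0.24 and 0.454 in experiment 2.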

How the data were processed

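The authors deposited whole-number read counts per gene, in 1 table for each of the 2 experiments. The submitters' processing notes name STAR 3.0.4, Subread and featureCounts 1.4.5. No source used here gives the genome build or the strandedness. Per the labels, RNA was extracted with a Qiagen micro kit and libraries were made with a Clontech kit. Each table held 41388 mouse gene IDs, of which 40340 are in GENCODE M21, and IDs outside it took 0.143% and 0.113% of the reads. The experiment 1 table also held 3 entries that are not mouse genes, which were left out. All columns were matched to samples by title.

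Genes with low counts were removed with filterByExpr (minimum count 10, minimum total 15), libraries were scaled by TMM, and edgeR 4.0.16 in R 4.3.3 fitted quasi-likelihood models (robust) without a replicate block, in 8 fits for 30 comparisons. P-values were adjusted by Benjamini-Hochberg over all genes of a fit and called under 0.05. The standard error is the size of the log2 fold change divided by the square root of F. Each population of experiment 1, and each population of experiment 2, was fitted alone, and comparisons between populations used all groups concerned. The scripts were tested on simulated data with known changes. No 2 libraries held identical counts.

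Groups and replicate numbers follow the labels. Same-numbered libraries deviated together in every pair (correlation over 0.1) only between ko and wt HPC after IL-1 (0.158 to 0.37). There the numbers were taken to pair the samples, and the block left 0 members called. The Y-linked levels did not match in those pairs: 122.6, 0.0299 and 0.0244 CPM in ko and 0.0870, 209.1 and 182.6 CPM in wt. In experiment 1 replicates 1 and 4 of ko lacked Y-linked RNA in every population, so a number may mark the same mice across populations. The fits between populations treated such libraries as separate, and only the replicate block paired them. Alternatives were DESeq2 1.42.0, DESeq2-type (RLE) scaling, no filter on low counts, a replicate block, the Y-linked level as a covariate, all libraries in 1 fit and each library left out in turn. The members and gene lists were chosen with earlier results of these data known. By the rule for named genes, all 7 members are given, with the other family genes that were called, the 3 genes most like each member, and marker lists by counts and summed level where they stand beside a result. The single marker genes named were chosen after their values were seen. Intervals for single libraries are not given, since every value has replicates.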

Additional observations from a re-analysis of the deposited data

Results flagged for a closer look

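Among 86 groups of 4 libraries in which a member's values were checked, 5 held a library whose gap to the others passed Dixon's 95% critical value, and chance gives about 1 in 20 groups. Ms4a4b had 4.58 CPM in ko GMP replicate 1, below the 7.97 to 8.50 CPM of the other ko GMP libraries. It had 9.64 CPM in wt GMP replicate 3, above the 6.57 to 7.09 CPM of the others, and 6.76 CPM in ko HPC replicate 1, above 3.89 to 4.10 CPM. Ms4a4c had 3.05 CPM in het HSC replicate 4, above 0.174 to 0.573 CPM, a library that also had a high summed level of neutrophil genes. Ms4a6b had 37.5 CPM in ko HSC replicate 2, above 23.7 to 26.1 CPM in the others, and still below every het and wt library.

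The ko over wt change of Ms4a6c differed between populations of experiment 1 by the interaction test, which was not run in experiment 2. The difference of log2 fold changes was 1.89 for HPC minus HSC and 1.38 for pGM minus HSC. The part of BE692007, which overlaps Ms4a6c on the opposite strand and lay on the same side in both HSC and HPC, was not tested.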

How the results depend on the processing

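The counts of called members that moved by more than 1.5 times were as follows. DESeq2 called 2 instead of 1 in HPC ko against wt, 1 instead of 0 in the GMP minus HSC difference, 4 instead of 2 for IL-1 in ko HPC, 1 instead of 0 in HPC ko against wt after PBS, 1 instead of 0 for IL-1 in ko HSC, 4 instead of 0 in HSC ko against wt after IL-1 and 2 instead of 1 after PBS. Without the filter on low counts these were 1 for HPC after PBS, 1 for IL-1 in ko HSC, 3 for HSC after IL-1 and 2 for HSC after PBS. With the Y-linked covariate 0 remained called in HPC ko against wt, HPC ko against het and pGM ko against wt, and 1 of 2 in HSC ko against het. With all libraries in 1 fit the count was 0 for HPC ko against het and pGM ko against wt, 1 for IL-1 in both ko HPC and ko HSC, and 2 for HSC ko against wt after IL-1. With replicate numbers 1 to 3 alone, a setting chosen after seeing the data, it was 0 for HPC ko against wt, HPC ko against het, pGM ko against wt and the pGM minus HSC difference, and 1 for HSC ko against het and for wt HPC against HSC. Smaller moves were 3 in DESeq2 for HSC ko against wt and 4 for IL-1 in wt HPC, 2 without the filter for wt GMP against pGM (Ms4a6c lost) and 3 for IL-1 in ko HPC (Ms4a3 gained), and 3 with replicate numbers 1 to 3 for wt pGM against HPC (Ms4a4b lost). With all libraries in 1 fit HPC ko against wt kept a count of 1, but for Ms4a6c in place of Ms4a4c.

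With the replicate number as a block the counts were 0 for HPC ko against wt and ko against het, 3 for HSC ko against wt after IL-1 and 3 for wt HPC against HSC after PBS; in those comparisons the labels give only a shared number, and not every same-numbered pair deviated together, although the number 4 libraries of HPC shared a high neutrophil level. In HPC ko against wt after IL-1, where the numbers were taken to pair, the block called 65 genes in all, against 32 without it. It changed no other count of members.

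With each library left out in turn, the count ranged from 0 to 1 in HPC ko against wt, HPC ko against het, pGM ko against wt, both the GMP and pGM minus HSC differences, IL-1 in ko HSC and HSC ko against wt after PBS. It ranged from 1 to 2 in HSC ko against het, 1 to 3 in HSC ko against wt, 0 to 2 in wt HPC against HSC, 2 to 3 in wt GMP against pGM, 1 to 3 for IL-1 in ko HPC, 0 to 2 for IL-1 in wt HSC and 0 to 3 in HSC ko against wt after IL-1. Ms4a6b in HSC ko against wt stayed called throughout (-1.43 to -1.20, adjusted p at most 0.0172). No called value changed sign. Among values called in neither fit there were 120 sign changes in 56 values, and Ms4a4c in HSC ko against wt ranged from -0.71 to 1.79.

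Over all genes, DESeq2 called more: 469 against 246 in HSC ko against wt, 302 against 146 in HPC, 421 against 251 in pGM, 225 against 67 in GMP, 374 against 132 in HSC after PBS, 94 against 0 in HSC after IL-1, and for IL-1 178 against 33 in wt HSC, 468 against 151 in wt HPC and 233 against 69 in ko HPC. Values of a few CPM, as for Ms4a7 and Ms4a6d in most groups, rest on comparatively few reads. Whether depth, the spread between libraries or the adjustment over all genes held back calls there was not tested.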
